A study of Mus musculus with 4 samples.

Results

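The genes described here are 35 muscle genes: the proteins of the sarcomere, the calcium and energy machinery of striated muscle, and the myogenic transcription factors. They were listed by function, and each was examined for ChIRP-seq peaks of the long noncoding RNA Malat1. A gene was counted when a peak summit lay in its body or within 5 kb of either end (mm10). All 35 were found among the 21627 protein-coding genes of chromosomes 1 to 19 and X in RefSeq (GRCm38.p6, which is the build of the peaks). The study worked in 4T1-TGL, a mouse breast cancer cell line labelled with the strain BALBC and the genotype WT. In ChIRP, biotin-labelled antisense probes fish out a chosen RNA from nuclei, and the DNA that comes along is sequenced. There were 4 libraries with 1 per group: pull-downs titled Even, Odd and LacZ, and an input titled as the Even input. By convention, Even and Odd are independent sets of probes to the target, while LacZ probes have no target in mouse cells. The deposited data are 1 list of 77823 peaks called on a merged treatment against the input, and the sources used here do not name the pull-downs that were merged. No peak therefore has a replicate error, and no pull-down could be set beside another.

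Striated muscle shortens when myosin heads of the thick filament pull on actin of the thin filament. Troponin on the thin filament opens the myosin binding sites when calcium is released from the sarcoplasmic reticulum. Many of these genes are switched on by MyoD, myogenin and their relatives, usually together with MEF2 factors, when muscle precursors differentiate, and they are known to be silent or nearly silent in epithelial cells. The files hold no RNA levels, so their silence in 4T1-TGL cells was not measured.

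Peaks lay at 26 of the 35 muscle genes (74.3%), against 60.8% of all protein-coding genes. Longer genes hold summits more often, so each muscle gene was also set beside the 500 protein-coding genes nearest to it in length. Their shares with a summit added up to 20.4 genes (58.4%), fewer than were counted. The median muscle gene was 17.2 kb long and the median protein-coding gene 17.3 kb, and both had a median of 1 summit. Many of the peaks were at the detection limit. In the absence of the peaks with 3 tags, the fewest of any peak, 19 of the 35 genes kept a summit (54.3%), against 49.4% of all protein-coding genes and 16.1 genes at the shares of like length. A count of 3 tags has an exact 95% Poisson interval of 0.619 to 8.77 tags, which covers counting error only and takes tags as independent.

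With all peaks, the surplus over genes of like length, counted in genes with a summit, lay within 5 kb outside and not in the bodies. Counted in summits, the bodies held 52 where 42.6 were predicted from 250 kb on each side, a ratio of 1.22. A summit lay inside the body of 15 muscle genes, against 47.9% of all protein-coding genes and 15.2 at the shares of like length. The other 11 genes had summits only outside the body, within 5 kb, against 12.9% of all protein-coding genes and 5.18 at the shares of like length. For 5 of these 11 (Acta1, Myh1, Myh3, Tnni2 and Casq1) the only peak held 3 tags. Without 3-tag peaks, an alternative added with the data in view, 6 genes had summits only outside the body, against 10.6% of all and 4.28 at like length. In the body 13 then had one, against 38.8% of all and 11.8 at like length. The nearest of these 11 lay 917 bp outside the gene and the farthest 4647 bp, so that a limit of 1 kb counted 16 genes, against 51.0% of all and 16.5 at like length. A limit of 20 kb counted 30, against 79.4% of all and 27.5 at like length. Of the 11, 6 had the summit upstream of the gene and 4 downstream, and Tnni2 could not be oriented with the table used. The summits closest to the limit of 5 kb on its inner side belonged to Ttn (4731 bp), Mb (4667 bp) and Myh3 (4647 bp). Among the genes without a summit, Tnnt1 came nearest, with a summit 6519 bp away. No set test was made of these counts.

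**Figure D1:**
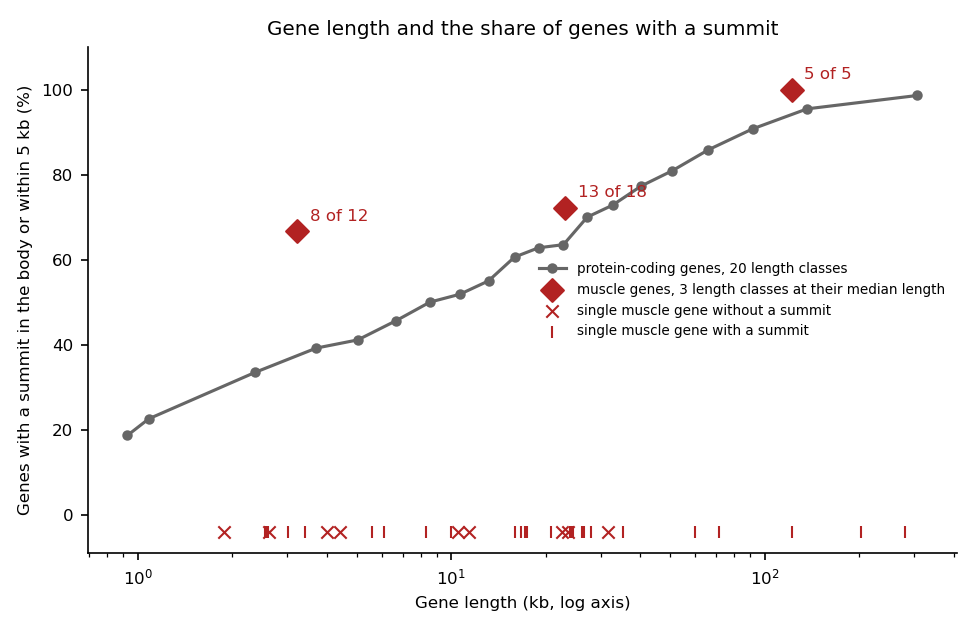
The y axis shows the percentage of genes with a summit no more than 5 kb outside the body, and the x axis gene length in kb on a log scale; grey points are 20 length classes of all protein-coding genes, red diamonds the muscle genes in 3 length classes, and the marks at the foot single muscle genes. Of the 12 muscle genes under 10 kb, 8 had a summit, against 36.2% of all genes of that length, while 13 of 18 between 10 and 50 kb (65.4% of all) and 5 of 5 longer ones (91.2% of all) lay closer to the other genes. Without 3-tag peaks, which is not plotted, the counts were 6 of 12 (25.3% of all), 8 of 18 (51.2%) and 5 of 5 (83.6%).

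No peak overlapped a listed promoter of a muscle gene. The RefSeq promoter table (GRCm38.p6) lists 29 of the 35 genes, and it has no entry for Actn3, Neb, Tnnt3, Tnni2, Myod1 and Myf6. Across all protein-coding genes with a listed promoter, a peak overlapped it in 2.12%. A summit lay within 1 kb of a listed start for 2 of the 29 (Tnni1 and Ttn), against 8.34% of all genes. Within 2 kb it lay for 6 of the 29, against 14.8%: Tnni1, Ttn, Tnnc1, Tnnt2, Atp2a1 and Myl3.

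The 250 bases before the start are shown for 5 genes, 4 of them with a summit within 2 kb of the start and the fifth, Myog, the only myogenic factor with a summit. The genes were chosen after their values were seen. Capitals mark the E-box CANNTG, the core bound by MyoD and myogenin, and a MEF2-like motif (CTA, any 4 bases, TAG). Both motifs read the same on the other strand, and they overlapped each other in no promoter. All are written 5′ to 3′ along the gene, from the RefSeq table. They are chr2:76982548-76982797 (Ttn, minus strand), chr1:135836084-135836333 (Tnnt2, plus strand), chr14:31208062-31208311 (Tnnc1, plus strand), chr7:126463074-126463323 (Atp2a1, minus strand) and chr1:134289754-134290003 (Myog, plus strand).
Ttn: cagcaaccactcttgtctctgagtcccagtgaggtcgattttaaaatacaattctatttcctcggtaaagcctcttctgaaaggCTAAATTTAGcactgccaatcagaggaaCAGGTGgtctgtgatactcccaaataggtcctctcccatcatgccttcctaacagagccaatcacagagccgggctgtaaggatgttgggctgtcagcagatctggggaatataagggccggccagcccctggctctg
Tnnt2: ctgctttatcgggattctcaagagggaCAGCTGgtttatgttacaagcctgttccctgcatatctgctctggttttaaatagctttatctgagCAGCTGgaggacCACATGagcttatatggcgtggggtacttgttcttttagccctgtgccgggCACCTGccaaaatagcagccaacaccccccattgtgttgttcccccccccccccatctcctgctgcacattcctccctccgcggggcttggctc
Tnnc1: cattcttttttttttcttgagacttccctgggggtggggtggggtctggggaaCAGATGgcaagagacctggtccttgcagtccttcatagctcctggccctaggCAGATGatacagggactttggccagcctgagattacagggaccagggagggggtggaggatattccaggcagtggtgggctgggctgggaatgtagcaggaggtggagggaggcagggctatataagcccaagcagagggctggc
Atp2a1: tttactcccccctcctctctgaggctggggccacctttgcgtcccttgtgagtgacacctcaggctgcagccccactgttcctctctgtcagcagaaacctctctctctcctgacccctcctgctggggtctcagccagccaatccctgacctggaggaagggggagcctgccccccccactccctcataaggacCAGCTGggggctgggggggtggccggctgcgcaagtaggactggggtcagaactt
Myog: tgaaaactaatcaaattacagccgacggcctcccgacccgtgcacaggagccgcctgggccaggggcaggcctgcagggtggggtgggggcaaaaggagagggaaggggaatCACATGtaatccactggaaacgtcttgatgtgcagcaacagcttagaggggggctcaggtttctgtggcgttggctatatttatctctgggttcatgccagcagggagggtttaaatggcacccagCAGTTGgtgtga

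An E-box stood in 30 of the 35 listed promoters of muscle genes (85.7%, some genes having several starts), against 62.8% of 21044 promoters of protein-coding genes. The MEF2-like motif stood in 2 of 35 (5.71%), those of Ttn and Myf5, against 3.09% of all. Its pattern fixes the ends and lets any bases stand between. The match at Myf5 is CTAGGTTTAG, while the stretch ctatatttat of the Myog promoter is not counted. A promoter with no match may therefore still hold a MEF2 site, and a match need not be one. In the sequences shown, the Tnnt2 promoter holds 4 E-boxes, and Ttn holds 1 together with the MEF2-like motif. The summits were off these sequences: 779 bp upstream of the Ttn start with 3 tags, 1139 bp upstream of Tnnt2 with 10 tags, and 1067 bp upstream of Tnnc1 with 5 tags. The nearest summit of Atp2a1 lay 1451 bp downstream of its start with 34 tags, and that of Myog 2366 bp downstream with 7 tags. Motif matches are letters in a window and do not show binding.

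The muscle genes held 70 distinct peaks, of which 52 had the summit in a member's body. The shared peak of Myh6 and Myh7 counts for both genes, which makes 71 summits in all. Most genes had few: 9 had none, 14 had exactly 1, 6 had 2 to 4, and 6 had 5 or more. Those 6 genes, Ttn, Ryr1, Neb, Actn2, Casq2 and Atp2a1, held 41 of the 71 summits. The peaks were of ordinary strength for this list. Their median was 4 tags (5 over the 77713 peaks of chromosomes 1 to 19 and X), and their median fold enrichment over input, the authors' value, was 139 (133 over all). Of the 70, 27 held 3 tags (38.6%, against 37.2% over all), 12 held at least 10 (17.1% against 22.3%) and 4 held at least 20 (5.71% against 8.27%). With so shallow a treatment (851227 tags after duplicate removal), a fold of this size can rest on 3 tags: a height of 3 over the genome mean of input gives 179.5, the value at Acta1. The input level behind each fold, computed as height over fold and given in units of the genome mean, ran from 1.00 to 3.37 at the muscle peaks, with a median of 1.42. The lowest level over all peaks of chromosomes 1 to 19 and X was also 1.00, so a value of 1.00 may stand for a lower input. The level was not measured away from peaks.

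**Figure D2:**
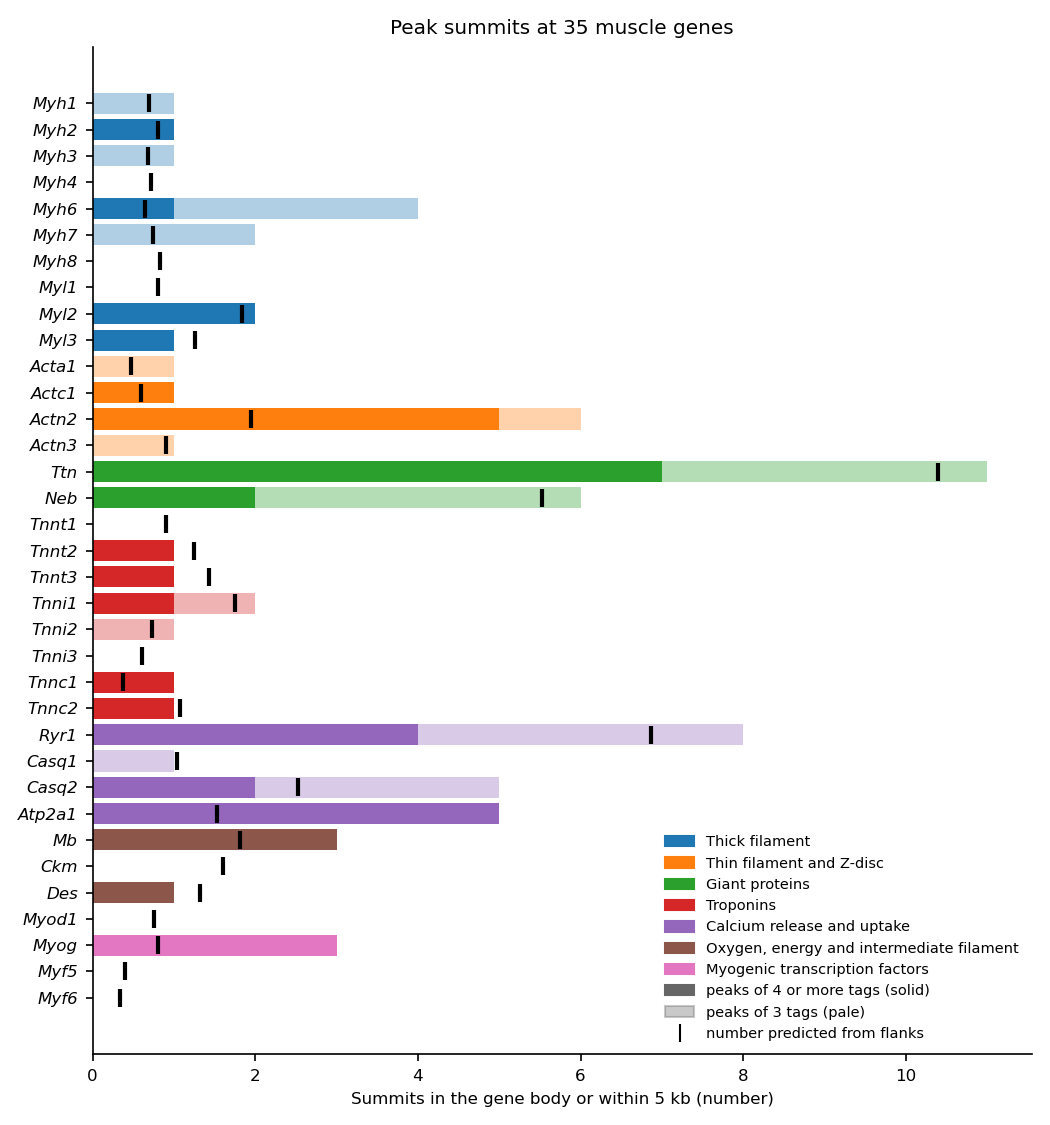
Bars show the number of summits inside or up to 5 kb from each of the 35 muscle genes (x axis), coloured by role, with peaks of 4 or more tags solid and peaks of 3 tags pale; black ticks mark the number predicted from 250 kb on each side. Ttn has the most summits, 11 where 10.4 were predicted, and Actn2, Atp2a1, Myh6 and Myog stand furthest beyond their ticks in proportion.

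Regional density was taken into account gene by gene, because the density of summits differs between regions. Each gene's summits were compared with those of the 250 kb on both sides by an exact two-sided binomial test, adjusted by Benjamini-Hochberg over the 21067 protein-coding genes with any summit in reach. Of the 35 muscle genes, 0 passed with more summits (0.0380% of all genes did) and 0 with fewer (0.0142%). A shortage could hardly show at most of them. Only Ttn (10.4), Ryr1 (6.86) and Neb (5.52) had more than 2.52 summits predicted. Ckm, with 0 where 1.60 were predicted, had an exact binomial p of 0.406. At an unadjusted p under 0.05, 3 of the 35 had more (3.76% of all) and 0 had fewer (0.584%). These were Myh6, with 4 summits against a prediction of 0.650 (exact binomial p = 0.00897, adjusted 0.896), Atp2a1, with 5 where 1.53 were predicted (exact p = 0.0261, adjusted 1.00), and Actn2, with 6 where 1.95 were predicted (exact p = 0.0309, adjusted 1.00). The test takes summits as independent, and some lay close together. At Actn2 a peak ended at 12277203 and the next began at 12277223, and 3 others lay within 1 kb of each other. At Atp2a1 a peak ended at 126459646 and the next began at 126459697. The p-values do not allow for this. Summed over the list, the flanks predicted 55.9 summits and 71 were found, a ratio of 1.27, against 1.02 over all protein-coding genes, 1.16 over the 66 other striated muscle genes and 1.80 over the 24 non-muscle counterparts described further on. In simulated data the test recovered 88.0% of genes raised 8-fold and 36.0% of those raised 4-fold. Summits were drawn there as independent, so clustering was not simulated. Both sizes were simulated in genes with at least 1 predicted summit, and neither smaller gains nor losses were simulated. Most of the 35 genes were predicted fewer than 1 summit, such as Myh6 with 0.650, so these shares do not describe them.

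All 4 calcium genes had a summit, against 2.84 at the shares of like length, and 3 kept it without 3-tag peaks (2.39 at like length). The strongest peak of the 35 genes was at Atp2a1. Atp2a1 encodes the pump that returns calcium to the sarcoplasmic reticulum of fast fibres (chromosome 7, 126445858 to 126463103). It held 5 peaks, all in the body and all above 3 tags. From the lower coordinate upward they held 4, 24, 4, 8 and 34 tags. The last one, at 126461378 to 126461827, had a fold of 699 (rank 479 in the list), a 95% Poisson interval of 23.5 to 47.5 tags and an input level at 1.20 times the genome mean. The peak of 24 tags had a fold of 469. The gene's 3 largest peaks lay within 4697 bp of its start, on the downstream side. Without 3-tag peaks its flanks predicted 0.763 summits (exact p = 0.00233, adjusted 0.788).

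Ryr1, the calcium release channel of skeletal muscle (chromosome 7, 29003340 to 29125179), held 8 summits where 6.86 were predicted. All lay in the body, between 40320 and 96451 bp downstream of its start, so that the stretch nearest the start held none. The largest had 23 tags and a fold of 233 at an input of 2.32 times the genome mean. The next held 8, 7 and 6 tags, and the other 4 held 3 each. Casq2, the calcium-storing protein of the cardiac reticulum (chromosome 3, 60.1 kb), held 5 summits of 3 to 5 tags where 2.52 were predicted. Its skeletal relative Casq1 (chromosome 1) had a single peak of 3 tags, 1104 bp downstream of the gene.

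**Figure D3:**
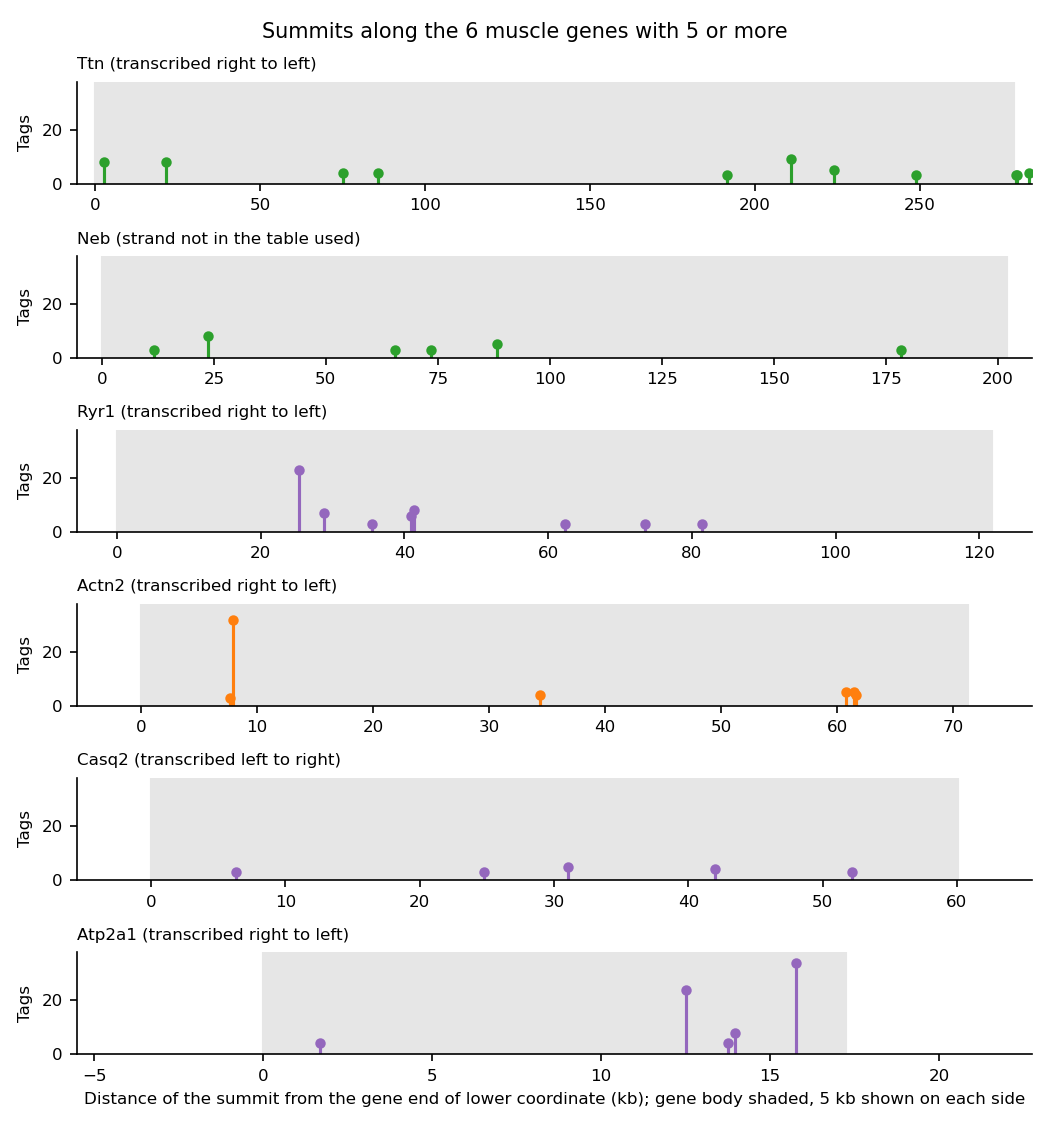
Each panel shows 1 gene with 5 or more summits; the x axis is the distance of a summit from the gene end of lower coordinate in kb, the height is the number of treatment tags in the peak, and the gene body is shaded. The 2 tall peaks of Atp2a1 (24 and 34 tags) lie toward its start, that of Actn2 (32 tags) toward its far end, and those of Ttn never exceed 9 tags.

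All 4 Z-disc and thin filament genes had a summit, against 2.26 at the shares of like length, and 2 kept it without 3-tag peaks (1.73 at like length). The most and the strongest were at Actn2. Actn2 encodes an alpha-actinin that crosslinks actin at the Z-disc of striated muscle (chromosome 13, 12269426 to 12340732). Its 6 peaks held 3, 32, 4, 5, 5 and 4 tags in order of coordinate, all in the body. The peak of 32 tags, at 12277223 to 12277579, had a fold of 528 (rank 1568) at an input of 1.36 times the genome mean, 63388 bp downstream of the start. The last 3 clustered within 1 kb of each other, 9650 to 10541 bp downstream of the start. Actn3, the alpha-actinin of fast fibres (chromosome 19), held 1 peak of 3 tags. Skeletal actin, Acta1 (chromosome 8, 3.02 kb), had 1 peak of 3 tags 4468 bp downstream. Cardiac actin, Actc1 (chromosome 2, 5.59 kb), had 1 of 15 tags 4318 bp upstream, inside the lncRNA C130080G10Rik, with a fold of 142 at an input of 3.37 times the genome mean, the highest among the muscle peaks.

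The giant filament genes held many summits, about as many as other genes of their length, and none above 9 tags. Ttn encodes titin, which spans from Z-disc to M-band (chromosome 2, 76703980 to 76982557). Its 11 summits stand beside a mean of 9.72 in genes of like length, and 4 of them held 3 tags. The best had 9 tags and a fold of 185. Between 85745 and 191496 bp above the lower end no summit was found. Neb encodes nebulin, which runs along the thin filament (chromosome 2, 52136640 to 52338798). It held 6 summits, where like-length genes held a mean of 7.65 and the flanks predicted 5.52. Of these, 4 had 3 tags, and the other 2 had 8 and 5.

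**Figure D4:**
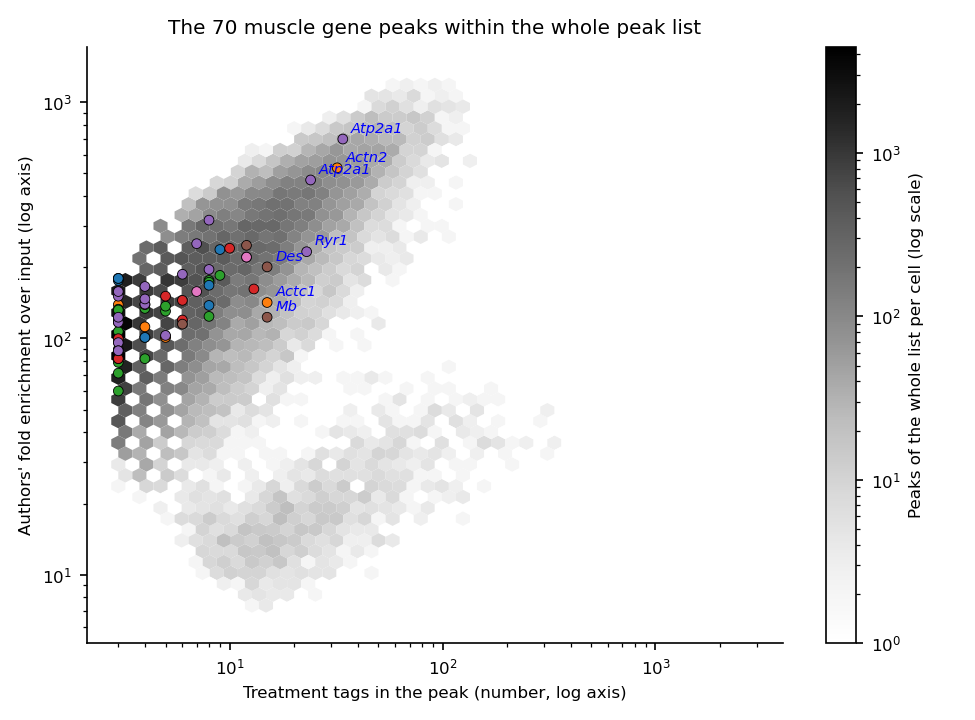
Each coloured point is 1 of the 70 muscle gene peaks, placed by its treatment tags (x, log axis) and the authors' fold enrichment over input (y, log axis) and coloured by role as in the plot of summits by gene; grey cells count all peaks of the list. The named points hold 15 or more tags, and Atp2a1 and Actn2 reach the highest folds (699 and 528), well under the list's maximum of 1317.

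Among the thick filament genes, 7 of 10 had a summit, and 4 of 10 without 3-tag peaks. The shares of genes of like length add up to 6.45 and 4.92. The skeletal myosin heavy chains lie side by side on chromosome 11, from Myh3 to Myh8 (67078273 to 67308634). This stretch of 230.4 kb held 3 summits where its flanks predicted 6.25, and only 1 had more than 3 tags. That peak, of 9 tags and fold 238, lay in Myh2, the fast oxidative isoform, 4663 bp downstream of the start. Myh1, another fast isoform, and embryonic Myh3 had 1 peak of 3 tags each, both outside the body, the former inside the lncRNA Myhas. Fast Myh4 and perinatal Myh8 had none, with the nearest summits 11350 and 44712 bp away. Neither absence passed the test, since the flanks predicted only 0.718 and 0.830 summits (exact p = 1.00 for each).

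The cardiac heavy chains on chromosome 14, Myh6 and Myh7, held more summits than their flanks predicted, nearly all of them weak. Their stretch of 52.7 kb held 5 summits where 1.00 was predicted from the flanks. Of these, 4 held 3 tags. The exception was a peak of 12 tags and fold 221 in the body of Myh6, the atrial and adult mouse ventricular isoform. One of the 3-tag peaks lay 24 bp outside Myh6 and inside the neighbouring gene Cmtm5. Another, at 54972071 to 54972146, lay in Myh7, the slow and embryonic ventricular isoform, and in Mhrt, an lncRNA of the same locus, and is counted for both myosins. Myh7 had no peak above 3 tags.

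The light chain genes varied. Myl2, the regulatory light chain of slow and ventricular muscle (chromosome 5), held peaks of 8 and 4 tags in the body where 1.84 were predicted, the smaller also inside Ccdc63. Myl3, the essential light chain of the same fibres (chromosome 9), had 1 peak of 8 tags, 1988 bp upstream. Myl1, the fast essential light chain (chromosome 1, 23.6 kb), had none within 21081 bp.

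Of the 8 troponin genes, 6 had a summit, against 3.94 at the shares of like length, and 5 kept it without 3-tag peaks (2.91 at like length). Their 7 summits compare with 8.11 predicted from the flanks. Cardiac Tnnt2, which ties troponin to tropomyosin, had 10 tags at a fold of 241, at 135835145 to 135835404 on chromosome 1. Fast Tnnc2, a calcium sensor, had 13 tags 917 bp downstream of the gene, at an input of 2.21 times the genome mean. The slow and cardiac sensor Tnnc1 had 5 tags, and fast Tnnt3 had 6 in its body. Slow Tnni1, an inhibitory subunit, had peaks of 3 and 6 tags in its body, the smaller 346 bp upstream of a start. Fast Tnni2 had 1 of 3 tags 1401 bp outside. Slow Tnnt1 and cardiac Tnni3, neighbours on chromosome 7 (4504569 to 4522718), had none where 1.24 were predicted for the pair.

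Of the 4 myogenic transcription factors, only Myog had a summit. The shares of genes of like length, from 27.6% to 34.2%, add up to 1.29. Myog encodes myogenin, which drives terminal differentiation (chromosome 1, 134290004 to 134292548). It held 3 peaks where 0.803 were predicted (exact binomial p = 0.0537, adjusted 1.00): 7 tags at the far end of the body, then 4 and 12 tags 1405 and 3203 bp beyond it. Myod1 (chromosome 7), which commits cells to the muscle lineage, had no summit within 14173 bp. Myf5 and Myf6, neighbours on chromosome 10 that act in early commitment and in later muscle, had none within 35060 bp of either, where 0.611 were predicted for the pair.

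Among the remaining genes, Des and Mb had summits and Ckm had none. Des encodes desmin, the intermediate filament that links the Z-discs (chromosome 1), and it had 1 peak of 15 tags and fold 201, 2404 bp upstream. Mb encodes the oxygen store myoglobin (chromosome 15, 77015487 to 77050668). Its 3 peaks held 12, 6 and 15 tags, the last of them inside the neighbouring gene Apol6 at an input of 2.93 times the genome mean. The gene has 3 listed starts. The peaks of 12 and 6 tags count as in the body, but lay 4226 and 7023 bp upstream of the nearest start. Chromosome 15 as a whole had a median input level at peaks of 2.37, the highest of the chromosomes that hold muscle genes. Ckm, the muscle creatine kinase (chromosome 7, 10.5 kb), had none within 24769 bp (exact binomial p = 0.406).

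The same counts were made for 2 further lists, to see whether the members stood apart. Of 66 other striated muscle genes, such as those of the M-band, the dystrophin complex, the triad and muscle stem cells, 51 had a summit (77.3%, against 44.2 genes at the shares of like length). Of 24 genes listed as counterparts of muscle genes in other cells, such as cytoskeletal actins, non-muscle myosins and calmodulins, 21 had a summit (87.5%, against 15.6). The name of this list does not mean that muscle lacks these genes. The order of the lists changed with the peaks used, and no test of the differences was made. Without 3-tag peaks, 46 of the striated genes (69.7%, 36.7 at like length) and 14 of the non-muscle counterparts (58.3%, 12.7 at like length) had a summit, beside 54.3% of the 35. At or above the median fold, 39 of the 66 striated genes (59.1%, 34.3 at like length) and 12 of the 24 non-muscle counterparts (11.8 at like length) had one. The 35 stood at 65.7% (14.5 at like length) and all protein-coding genes at 45.5%. A summit inside the body, for which the count of the 35 muscle genes matched genes of like length, was found at 43 other striated genes (36.7 at like length). The non-muscle counterparts had 18 such genes (12.5). No gene of either list passed the flank test after adjustment, and at an unadjusted p under 0.05 the striated list had 3 genes with more and 1 with fewer, and the non-muscle list 4 with more and 0 with fewer.

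In each list the named genes are the 3 whose best peak holds the most tags, and 4 of them exceeded every peak of the 35 in tags. Dmd and Trdn tie for the third place among the striated genes, and both are given. By fold, of the named genes only Myh10 and Itpr1 exceeded the 699 of Atp2a1, the highest of the 35. Myh10, a non-muscle myosin heavy chain, had a peak of 91 tags and fold 1017, and Itpr1, a calcium release channel of many cell types, 68 tags and fold 1028. Itpr1 also held 18 summits against a prediction of 5.57 (exact binomial p = 0.00458, adjusted 0.790). The smallest exact binomial p of that list was lower, 0.00227 (adjusted 0.758), at a gene not named here. Myh9, another non-muscle myosin, had 33 tags. Of the striated genes, Myl4, the atrial light chain, had 92 tags at a fold of 53.2, but it lies on chromosome 11 at 104546017 to 104587215, where input was 22.5 times the genome mean and 43 summits were counted against 31.9 predicted. Mybpc3, cardiac myosin-binding protein, had 43 tags at a fold of 363. Dmd, the dystrophin gene on chromosome X, had 33 tags at a fold of 658. Its 5 summits over 2390 kb were about as many as its flanks predicted. Trdn, which encodes triadin of the calcium release complex, also had 33 tags, at a fold of 659.

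**Figure D5:**
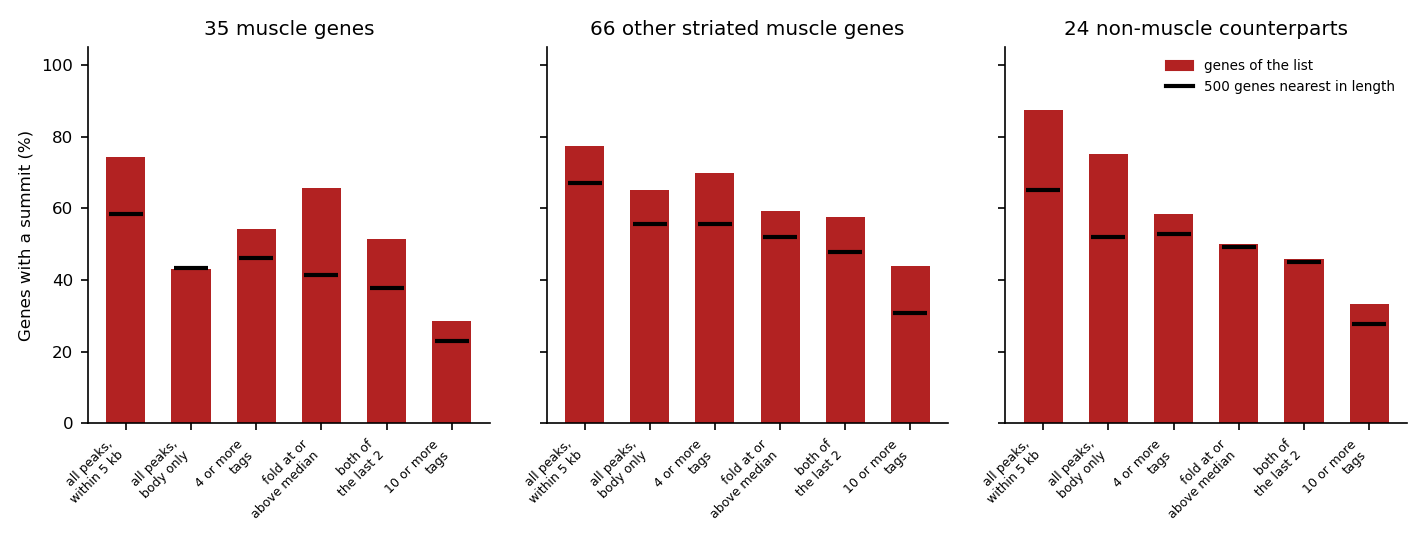
Bars show the percentage of genes with a summit in 3 lists (panels) under 6 choices of peaks or distance, and black lines the share among the 500 protein-coding genes nearest in length. For the 35 muscle genes the bar of all peaks within 5 kb stands above its line (74.3% against 58.4%) and the bar for the gene body alone at its line (15 of 35 genes, against 15.2).

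Selection by fold widened the distance from genes of like length, and 3-tag peaks made up part of it. With peaks at or above the list's median fold of 133, 23 of the 35 genes had a summit, against 45.5% of all protein-coding genes and 14.5 genes at like length. For 5 of the 23 this rested on 3-tag peaks alone. With both limits together, an alternative added with the data in view, 18 genes remained, against 41.6% of all and 13.2 at like length. With peaks of at least 10 tags, 10 genes remained (Actn2, Actc1, Myh6, Tnnt2, Tnnc2, Ryr1, Mb, Des, Myog and Atp2a1), against 25.9% of all and 7.99 at like length. Restricting the list to peaks with input at or under 2 times the genome mean left 24 genes, against 57.5% of all, with Actc1 and Tnnc2 lost.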

How the data were processed

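Per the labels' protocols, nuclei were sonicated and cleared, and complexes of DNA and RNA were pulled down and sequenced as single reads of 76 nt. Per the file headers, the authors called peaks with MACS 1.4.4 on 1 merged treatment (988411 tags, 851227 after duplicate removal) against 1 input (50030325 after removal, 58.8 times as many, scaled down), at a p cutoff of 1e-05 with a fragment length of 53 bp. Per the submitters' processing notes, the build was mm10 (GRCm38). The sources used here do not name the aligner. Deposited per peak are the tag count, the fold enrichment (a ratio of summit height to local input), the score (from the MACS p, used only to check that the 3 deposited lists hold the same peaks), the false discovery rate (0 percent throughout, not used) and the summit signal (tag pileup, unscaled). The input level at a peak was computed as height over fold, divided by the genome mean background (0.0167 tags per fragment, effective genome size of 2.7 gigabases).

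Summits were assigned to RefSeq genes (GRCm38.p6) by a distance of 5 kb. The gene table gives no exons, so exons and introns were not separated; starts and strands came from the promoter table. Chosen with earlier results of these data known were the members, the 2 further lists and the tests. Named are all members and, of the other lists, the 3 genes whose best peak holds most tags. Like-length shares came from the 500 nearest non-member genes and carry no test. Binomial tests (scipy 1.17.1) were checked on simulated data with 200 genes raised in summits.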

Additional observations from a re-analysis of the deposited data

How the results depend on the processing

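The number of muscle genes with a summit, 26 of 35, fell to 10 with peaks of at least 10 tags, to 15 for summits in the gene body only and to 16 within 1 kb. It ran from 18 to 30 under the other alternatives, and at like length the count was lower than observed except in the body and within 1 kb. The number with summits only outside the body, 11, fell to 6 without 3-tag peaks. For the other striated muscle genes the count of 51 fell to 29 with at least 10 tags (20.3 at like length). For the non-muscle counterparts the count of 21 fell to 12 at or above the median fold (11.8 at like length). It fell to 11 when 3-tag peaks were also left out (10.8), and to 8 with at least 10 tags (6.64). The number of like-length genes (200 or 2000 in place of 500) gave 20.4 and 20.5 genes. Against the flanks, 0 muscle genes passed under each of the 6 alternatives tried, with a smallest adjusted p from 0.534 (flanks of 1 Mb, Actn2) to 1.00. Of all protein-coding genes, 0 passed with peaks at or above the median fold, so no muscle gene could pass there. Under the other alternatives 5 to 26 of all genes passed. At an unadjusted exact binomial p under 0.05, 2 to 4 muscle genes had more summits (1 gene had fewer, within 20 kb). No share over all genes stands beside these unadjusted counts. The whole list is limited by the depth of the merged treatment, and neither the Even, Odd and LacZ pull-downs nor any replicate could be set beside these counts. No paired analysis was possible because each group has 1 library and the peak list joins the treatment.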
